A study of Mus musculus with 3 samples.

Results

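Enzymes that break down amino acids, together with those that make glutamine, creatine precursors, cysteine and arginine from them, are a defining part of the metabolism of the kidney's proximal tubule. The set described here holds 41 such genes of the mouse, out of 19782 named genes on the array. The genes were chosen by name as members of known routes, with earlier results of these data known. All 41 had at least 1 probe, and all were well above background on all 3 arrays. The routes are the breakdown of tyrosine, proline, glycine, choline derivatives, threonine, D-amino acids, sulfur amino acids, branched-chain amino acids, tryptophan and lysine, the handling of arginine, glutamate and glutamine, and the opening of myo-inositol.

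The study followed mPTECs, the abbreviation its labels use for primary mouse cells of the proximal tubule, during culture outside the animal. The cells came from kidneys of male mice aged 1 month and were measured on day 0, straight after isolation, and after 1 and 3 days on dishes, with 1 sample and 1 single-colour Agilent array per day. The culture medium of days 1 and 3 was DMEM/F12 with insulin-transferrin-selenium, non-essential amino acids, hydrocortisone, antibiotics and 1% fetal bovine serum, and the day 0 cells had not been cultured. No strain, number of animals or pooling is stated in the labels, and no other treatment set the days apart. A level is given as a multiple of the 75th percentile of the spots on its array, a reference brightness within each array, and levels are set against each other only for the same gene. With 1 sample per day there was no test and no error between samples. The spread within an array can be given instead. The median SD between spots of 1 probe was 0.15 on the log2 scale (735 values from probes with at least 5 spots), which for a ratio between 2 arrays makes 0.21, or 1.15-fold. Genes were counted from a 4-fold difference.

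Proximal tubule cells reabsorb the amino acids that the glomerulus filters, and part of what they take up is degraded in their mitochondria, peroxisomes and cytosol. Many of the breakdown routes begin with removal or transfer of the amino group or with an oxidation, and end in intermediates of the citrate cycle, in acetyl-CoA or in one-carbon units. The same cells make arginine from citrulline for the rest of the body and carry out the first step of creatine synthesis. Miox is included as the enzyme that opens the ring of myo-inositol, a reaction found mainly in the kidney, although inositol is not an amino acid.

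On day 3 the set was lower almost throughout. Of the 41 genes, 33 were at least 4-fold lower on day 3 than on day 0 (80.5%), against 7.80% of 19019 genes in all, and 0 were at least 4-fold higher, against 5.33% of all genes. The median log2 ratio of the set was -3.18, with a range of -6.90 to 0.56, and the median over all genes was -0.11. There were 15 genes at least 16-fold lower and 5 at least 64-fold lower: the tyrosine enzymes Hgd (119-fold) and Hpd (113-fold), Miox (103-fold), the methyltransferase Bhmt2 (72.0-fold) and the lysine enzyme Aass (71.0-fold). Among the 19019 genes ordered by this ratio, 8 of the 41 were in the lowest 100, 20 in the lowest 500 and 26 in the lowest 1000, and Hgd was the 41st from the bottom. In the other direction, only Tdh and Arg2 were above their day 0 level on day 3, by 1.48-fold and 1.31-fold, joined by Cth when the arrays were scaled to their spike-in controls.

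**Figure D1:**
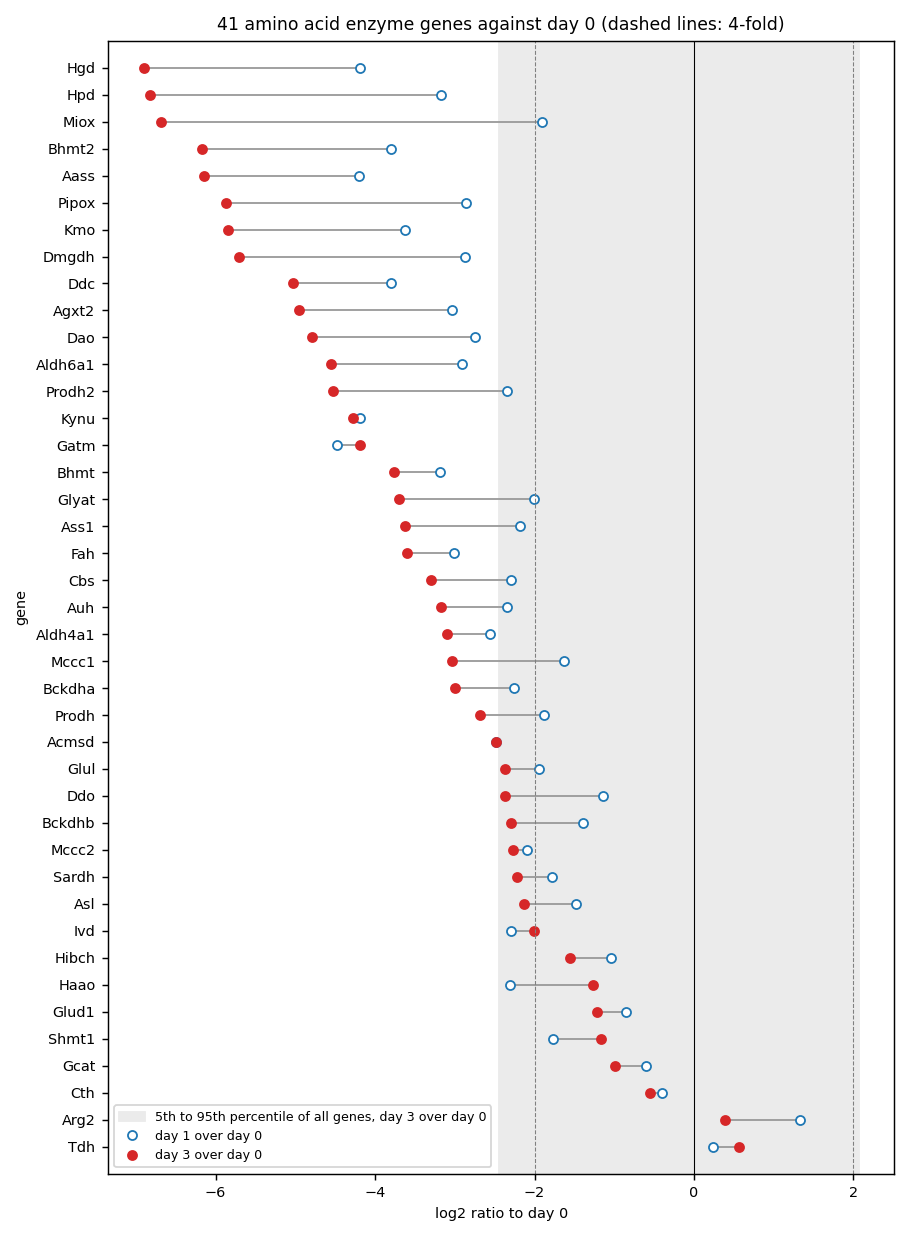
Log2 ratio to day 0 of each of the 41 genes on day 1 (open circles) and day 3 (filled circles), ordered by the day 3 value, with the range from the 5th to the 95th percentile of all genes on day 3 shaded. Hgd lies lowest at -6.90, 33 filled circles lie at or left of the 4-fold line, and Tdh and Arg2 are the 2 genes right of 0.

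Most of the difference was already there after 1 day. On day 1, 26 of the 41 genes were at least 4-fold lower than on day 0 (63.4%), against 5.14% of 18821 genes in all, and 0 were at least 4-fold higher, against 3.39%. The median of the set was -2.30 and that of all genes -0.11. Between day 1 and day 3, 9 of the 41 were at least 4-fold lower on day 3 (22.0%), against 1.27% of 18919 genes, 0 were at least 4-fold higher, against 1.61%, and the medians were -0.83 for the set and -0.04 for all genes. At a 2-fold difference, 18 of the 41 were lower on day 3 than on day 1, against 8.06% of all genes, and 1 was higher, the tryptophan enzyme Haao, against 6.97%. The step of the first day was the larger one on the log2 scale in 36 genes and that of the following days in 5, although the 2 steps share the day 1 array and cover 1 and 2 days. There were 35 genes that were lower on day 1 than on day 0 and lower again on day 3, and 4 that were lower on day 1 and then higher on day 3 than on day 1, namely Haao, Shmt1, Ivd and Gatm, although with spike-in scaling 8 more genes that differed little between those days lay higher on day 3 than on day 1. A group of 10 genes was at least 4-fold lower on day 1 and stayed within 2-fold between day 1 and day 3.

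**Figure D2:**
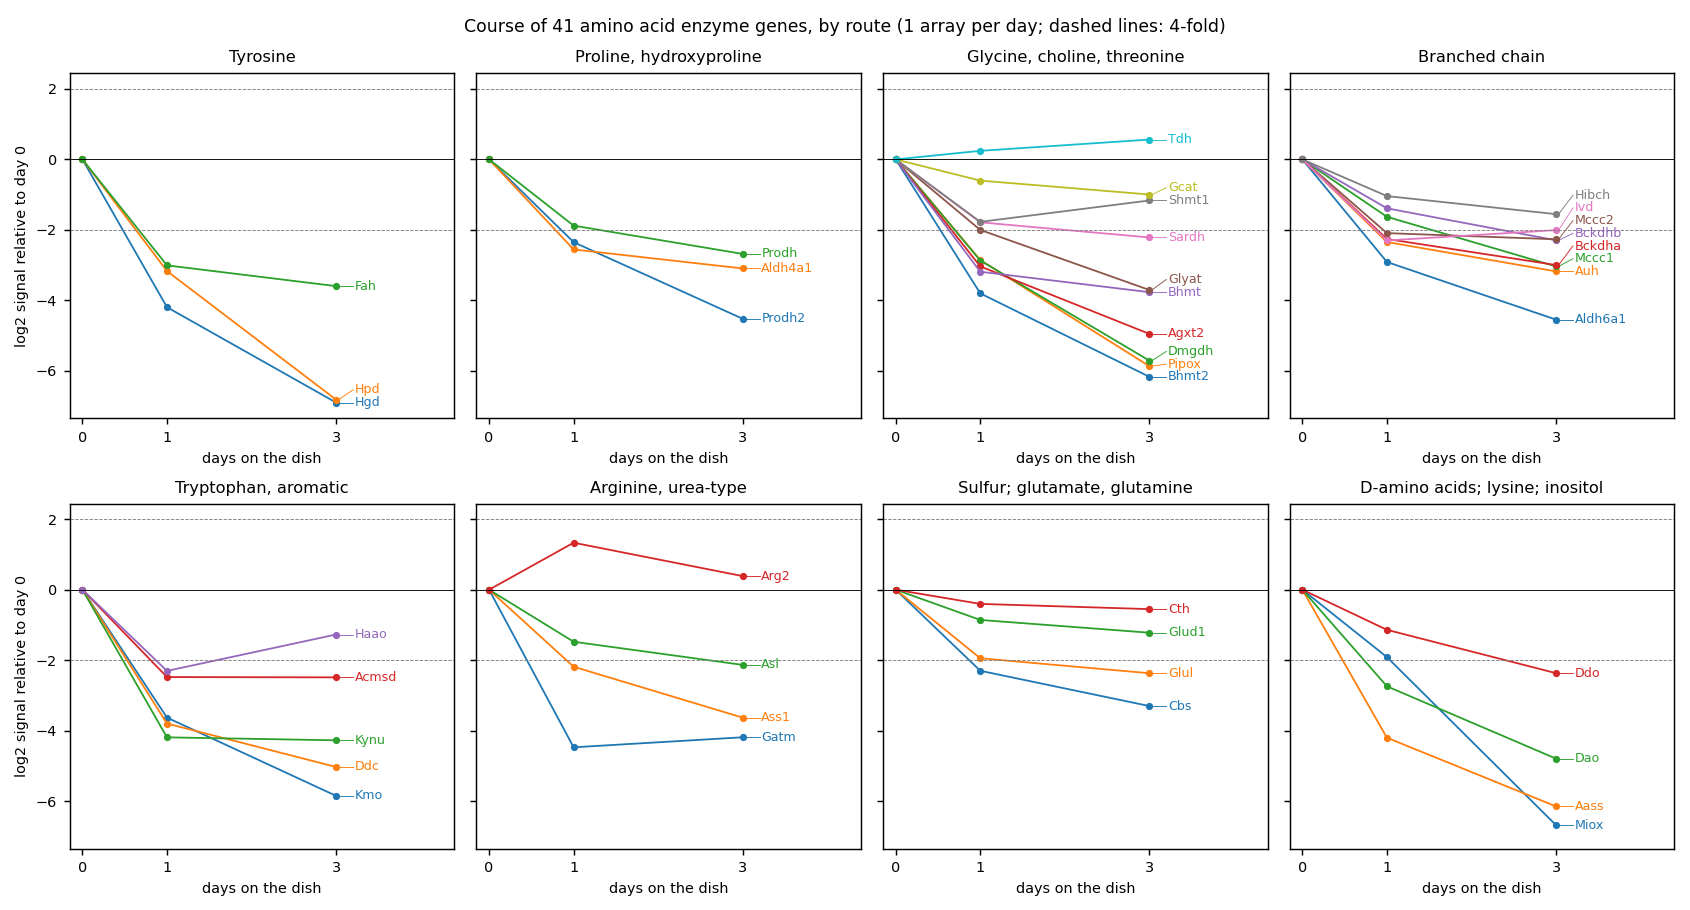
Log2 signal relative to day 0 against days on the dish for the 41 genes, in 8 panels by route, with 1 array per day and dashed lines at 4-fold. The tyrosine genes Hgd and Hpd and the inositol gene Miox end below -6, Gatm and Kynu reach their level by day 1, and Tdh and Arg2 are the lines that end above 0.

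Since most of the genes moved the same way, their promoters were searched for the sites of regulators known in the proximal tubule and of a few general ones. Of the 41 genes, 36 have a promoter in the RefSeq table for GRCm38.p6, 300 bases that run from upstream of the annotated start to just past it. There were 14 motifs searched on both strands, picked after the values had been seen, and a match is a description of letters only. AGGTCA, the hexamer that many nuclear receptors recognise, was present in 16 of the 36 genes (44.4%) and in 18.1% of the 27025 genes with a promoter. The longer motif CAAAGTCCA, which is close to the preferred site of the liver and kidney factor Hnf4a, was in 2 of the 36, Agxt2 and Pipox (5.56%), and in 0.555% of all genes. TTAAT and ATTAA with 1 base between them, the core of the palindrome bound by Hnf1 factors, was in Prodh2 alone of the 36 (2.78%), and in 0.141% of all. The shorter CAAAGT, which overlaps CAAAGTCCA, was in 22.2% against 16.1%, TGGACTTNG, which overlaps its reverse complement, was in 5.56% against 1.35%, GTTAAT was in 11.1% against 8.24%, the CCAAT box (CCAAT) in 47.2% against 41.1% and TATAAA in 11.1% against 15.7%. The following motifs were in none of the 36: the full Hnf1 palindrome of GTTAAT and ATTAAC 1 base apart (0.0111% of all genes), AGGTCA repeated after 1 base (0.0481%), TGATGNAA (4.51%), ATTGCATCA (0.222%), TGACGTCA (2.03%) and the glucocorticoid element of GNACA and TGTNC 3 bases apart (0.537%). Among the 5 genes at least 64-fold lower on day 3 than on day 0, AGGTCA was in Hgd, Miox and Aass and not in Hpd or Bhmt2. There are 5 promoters shown. They are those of Hgd and Miox, strongly lowered genes that hold AGGTCA, and those that hold the 2 longer motifs. Each is 5′ to 3′ on the gene's own strand. Every match to AGGTCA, CAAAGTCCA or the Hnf1 core, or to its reverse complement, is in capitals.
Miox (chr15:89334223-89334522, plus strand): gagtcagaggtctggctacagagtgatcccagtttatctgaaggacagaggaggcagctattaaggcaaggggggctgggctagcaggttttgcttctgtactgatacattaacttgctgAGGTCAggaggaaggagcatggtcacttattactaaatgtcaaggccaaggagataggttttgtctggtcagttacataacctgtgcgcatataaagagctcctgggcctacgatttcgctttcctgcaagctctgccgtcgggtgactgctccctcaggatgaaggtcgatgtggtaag
Hgd (chr16:37579903-37580202, plus strand): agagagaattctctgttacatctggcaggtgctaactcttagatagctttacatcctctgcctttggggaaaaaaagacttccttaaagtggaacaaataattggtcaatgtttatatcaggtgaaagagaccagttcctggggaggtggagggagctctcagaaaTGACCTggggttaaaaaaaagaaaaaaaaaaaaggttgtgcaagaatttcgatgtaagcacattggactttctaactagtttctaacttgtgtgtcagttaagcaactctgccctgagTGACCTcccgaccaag
Agxt2 (chr15:10358283-10358582, plus strand): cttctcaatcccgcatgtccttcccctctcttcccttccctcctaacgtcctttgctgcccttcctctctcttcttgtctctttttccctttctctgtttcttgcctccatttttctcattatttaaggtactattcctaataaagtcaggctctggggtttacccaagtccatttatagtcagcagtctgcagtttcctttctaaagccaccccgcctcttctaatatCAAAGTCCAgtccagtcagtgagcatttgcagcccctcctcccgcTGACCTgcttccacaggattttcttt
Pipox (chr11:77893823-77894122, minus strand): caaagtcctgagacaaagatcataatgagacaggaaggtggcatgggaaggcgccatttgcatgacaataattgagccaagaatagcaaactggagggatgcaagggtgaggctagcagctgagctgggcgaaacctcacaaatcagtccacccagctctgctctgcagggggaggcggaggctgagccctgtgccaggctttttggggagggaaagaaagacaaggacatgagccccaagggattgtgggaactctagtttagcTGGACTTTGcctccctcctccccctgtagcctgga
Prodh2 (chr7:30493408-30493707, plus strand): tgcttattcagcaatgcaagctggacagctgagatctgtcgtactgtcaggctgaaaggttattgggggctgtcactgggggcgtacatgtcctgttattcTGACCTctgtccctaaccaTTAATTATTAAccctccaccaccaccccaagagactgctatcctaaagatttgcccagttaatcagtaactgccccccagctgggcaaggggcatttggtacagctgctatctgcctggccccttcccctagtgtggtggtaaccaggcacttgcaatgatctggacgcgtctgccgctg
Miox and Hgd each carry the nuclear receptor hexamer, Agxt2 carries it beside the Hnf4a-type site, Pipox carries the Hnf4a-type site on the opposite strand, and Prodh2 carries the hexamer and the Hnf1-type core. Hnf4a itself, which was among the proximal tubule markers, stood at 12.3, 1.39 and 1.17 times the 75th percentile on days 0, 1 and 3, and whether it acts on these promoters was not tested.

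Tyrosine breakdown held the largest differences of any route with more than 1 gene, with a median log2 ratio of -6.82 on day 3 over 3 genes. Hpd, which turns 4-hydroxyphenylpyruvate into homogentisate, stood at 10.6, 1.18 and 0.0937 times the 75th percentile on days 0, 1 and 3. Hgd, which opens the ring of homogentisate, had 12.8, 0.697 and 0.107, the lowest ratio of the set. The last enzyme of the route, Fah, which splits fumarylacetoacetate, had 15.8, 1.96 and 1.30. All 3 were at least 8-fold lower on day 1 than on day 0, but only Hpd and Hgd went on to be at least 4-fold lower on day 3 than on day 1 (12.5-fold and 6.52-fold), whereas Fah was 1.50-fold lower over the same days. Among 5 other enzymes of the route, Gstz1, which isomerises maleylacetoacetate, had 10.95, 2.01 and 2.19 and was 5.00-fold lower on day 3 than on day 0. Qdpr, which recycles the cofactor tetrahydrobiopterin, was 4.38-fold lower. Under median centring 1 of these 5 was at least 4-fold lower on day 3, since Qdpr was then less than 4-fold lower.

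In proline breakdown, the 2 dehydrogenases that start the parallel routes of proline and hydroxyproline differed in size. Prodh, which oxidises proline, had 40.5, 11.0 and 6.31 on days 0, 1 and 3 and was 6.42-fold lower on day 3 than on day 0. Prodh2, which oxidises hydroxyproline, had 11.5, 2.26 and 0.501 and was 23.0-fold lower. Aldh4a1, the shared next enzyme, which makes glutamate from the product of Prodh, had 25.4, 4.31 and 2.97. All 3 genes passed 4-fold on day 3 and 2 of them on day 1, or 1 on day 1 when the probes of a gene were averaged. In the opposite direction, proline synthesis, 2 of the listed genes were at least 4-fold higher: Aldh18a1, its first enzyme, had 0.0744, 0.951 and 1.64 (22.0-fold higher on day 3 than on day 0), and Pycr1, a reductase of its last step, had 0.0440, 0.158 and 0.314 (7.13-fold higher, a log2 ratio of 2.83, against 1.74 with normexp background correction). Pycrl, another reductase of proline synthesis, was 1.52-fold lower on day 3 than on day 0.

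The enzymes grouped here as the steps from betaine to glycine were all lower on the culture days, by different amounts. Bhmt, which passes a methyl group of betaine to homocysteine, had 2.23, 0.245 and 0.164 on days 0, 1 and 3. Its paralog Bhmt2, which uses S-methylmethionine as the methyl donor, had 16.0, 1.15 and 0.222, so that Bhmt2 was 72.0-fold and Bhmt 13.6-fold lower on day 3 than on day 0. Their 60-base probes share no run longer than 6 bases. Dmgdh and Sardh, mitochondrial enzymes that remove the methyl groups of dimethylglycine and sarcosine in turn, followed different courses. Dmgdh had 6.78, 0.927 and 0.130, and Sardh had 9.31, 2.70 and 2.005, which puts Dmgdh 52.3-fold and Sardh 4.64-fold lower on day 3. Pipox, the peroxisomal oxidase of sarcosine and pipecolate, had 33.8, 4.66 and 0.578 and was 58.4-fold lower. All 5 of these genes, with Bhmt2 included as the paralog of Bhmt, were at least 4-fold lower on day 3. Their median log2 ratio was -5.71. Under median centring and under spike-in scaling 4 of the 5 were, since Sardh was then less than 4-fold lower. Chdh, the mitochondrial enzyme that feeds the route by oxidising choline, was lower too, with 5.28, 1.41 and 0.551, a 9.58-fold difference between day 3 and day 0.

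Bhmt, Bhmt2 and Dmgdh lie next to each other among the annotated coding genes of chromosome 13, with the probes of Bhmt and Dmgdh 132 kb apart on mm9. The nearest coding genes on either side that were set beside them, looked up after the values were known, were Arsb, the lysosomal arylsulfatase B, directly beyond Dmgdh, and Jmy, an actin-nucleating protein, separated from Bhmt by a predicted coding gene that was not analysed here. On day 3 the log2 ratios to day 0 were -0.69 for Jmy, -3.77 for Bhmt, -6.17 for Bhmt2, -5.71 for Dmgdh and -2.38 for Arsb. The 3 enzyme genes thus lay below Jmy and Arsb, and Arsb was itself 5.20-fold lower.

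The other genes of glycine and threonine handling were mixed, with 2 of 5 at least 4-fold lower on day 3 and a median log2 ratio of -1.17. Agxt2, a mitochondrial aminotransferase that acts on glyoxylate and on methylated arginines, had 1.50, 0.182 and 0.0484 on days 0, 1 and 3 and was 30.95-fold lower on day 3 than on day 0. Glyat, which joins glycine to benzoate and similar acids, had 26.3, 6.58 and 2.02 and was 13.1-fold lower. Its day 1 ratio lay just inside the threshold, at 4.01-fold. Shmt1, the cytosolic enzyme that interconverts serine and glycine, had 2.24, 0.656 and 0.999, lower on both culture days but higher on day 3 than on day 1 by 1.52-fold. Gcat, the second enzyme of threonine breakdown, had 28.8, 19.0 and 14.5. Tdh, the first, was dim at 0.264, 0.312 and 0.390, slightly higher on each later array. Of the other enzymes of the route that were lower, the largest differences on day 3 were those of Glyctk, the glycerate kinase (9.70-fold), Chdh and the glycine cleavage gene Gldc (8.14-fold). Genes of serine synthesis lay higher: Phgdh, its first enzyme, had 6.51, 58.7 and 108 (16.5-fold higher on day 3 than on day 0), and Psph, its last, had 3.65, 9.76 and 14.9 (4.08-fold higher, and within 4-fold under quantile normalization or with its probes averaged).

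The peroxisomal oxidases of D-amino acids were both lower on each later array. Dao, which oxidises D-serine and other neutral D-amino acids, had 4.13, 0.618 and 0.149 on days 0, 1 and 3 and was 27.7-fold lower on day 3 than on day 0. Ddo, which acts on D-aspartate, had 2.60, 1.18 and 0.503 and was 5.16-fold lower, though under 4-fold with spike-in scaling. Only Dao had passed 4-fold on day 1, at 6.69-fold, against 2.20-fold for Ddo.

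The sulfur amino acid pair separated. Cbs, which condenses homocysteine with serine, had 1.77, 0.360 and 0.180 on days 0, 1 and 3 and was 9.87-fold lower on day 3 than on day 0. Cth, which releases cysteine in the next step, had 13.9, 10.52 and 9.49, a difference of 1.47-fold. Past the release of cysteine, genes that process cysteine and its sulfur further were lower on day 3 than on day 0: Csad, the decarboxylase on the way to taurine, by 9.04-fold, Mpst, the mercaptopyruvate sulfurtransferase, by 7.28-fold, and Suox, the sulfite oxidase, by 5.60-fold.

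Breakdown of leucine, isoleucine and valine was lowered at 7 of 8 genes by at least 4-fold on day 3, with a median log2 ratio of -2.65. Under median centring and under spike-in scaling, 4 of the 8 were, since Bckdhb, Ivd and Mccc2 were then less than 4-fold lower. Bckdha and Bckdhb, the 2 subunits of the first component of the branched-chain ketoacid dehydrogenase, had 32.0, 6.69 and 4.01, and 5.46, 2.08 and 1.11, on days 0, 1 and 3. They were 7.99-fold and 4.91-fold lower on day 3. In the leucine branch, Ivd, the isovaleryl-CoA dehydrogenase, had 14.7, 2.99 and 3.67 and was 4.02-fold lower on day 3 than on day 0, the member nearest to the threshold on that day. The 2 subunits of methylcrotonyl-CoA carboxylase, Mccc1 and Mccc2, were 8.21-fold and 4.81-fold lower, with levels of 44.0, 14.2 and 5.36 for Mccc1 and 0.865, 0.203 and 0.180 for Mccc2. Auh, the hydratase that follows them, had 21.7, 4.28 and 2.40 and was 9.05-fold lower. In the valine branch, Aldh6a1, the methylmalonate-semialdehyde dehydrogenase, had 62.7, 8.34 and 2.68 and the largest difference of the route, 23.4-fold, whereas Hibch, the 3-hydroxyisobutyryl-CoA hydrolase, had 11.4, 5.52 and 3.87 and did not reach the threshold (2.94-fold). Between day 1 and day 3, 0 of the 8 were at least 4-fold lower, where 1.27% of all genes were.

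Other genes of the branched-chain route followed on both sides of these. Ppm1k, the phosphatase that activates the dehydrogenase complex, was 10.9-fold lower on day 3 than on day 0, Pccb, a subunit of propionyl-CoA carboxylase, 9.97-fold, and Acadsb, the acyl-CoA dehydrogenase of the isoleucine branch, 7.26-fold. Bcat1, the cytosolic aminotransferase, went the other way. It had 0.366, 0.343 and 3.29 on days 0, 1 and 3, and thus was 8.97-fold higher on day 3 than on day 0 and 9.59-fold higher than on day 1. That size belongs to its brightest probe, since the log2 ratio of day 3 over day 0 was 3.17 there and 0.88 with the probe of smallest change.

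All 5 genes of the kynurenine route and aromatic decarboxylation were at least 4-fold lower on day 1, and 4 of the 5 on day 3. Kmo, which hydroxylates kynurenine, had 1.50, 0.121 and 0.0260 on days 0, 1 and 3 and was 57.7-fold lower on day 3 than on day 0. Kynu, which cleaves kynurenine and its hydroxylated form, had 1.15, 0.0628 and 0.0592, so that its difference of 19.4-fold was reached by day 1 (18.3-fold). Acmsd, which diverts the route away from quinolinate, had 0.457, 0.0820 and 0.0815, likewise without a further difference after day 1. Haao, which forms the precursor of quinolinate, had 0.969, 0.196 and 0.401. It was 4.94-fold lower on day 1 and 2.41-fold lower on day 3 than on day 0, so that its day 3 level was 2.05-fold above that of day 1. Ddc, the decarboxylase that makes dopamine in the proximal tubule, had 14.0, 1.01 and 0.429 and was 32.7-fold lower on day 3. Of the other genes of this route, the kynurenine aminotransferase gene Aadat was 40.2-fold, the quinolinate enzyme gene Qprt 13.6-fold and Ido2, a dioxygenase of tryptophan, 6.71-fold lower on day 3 than on day 0.

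Lysine breakdown was represented by Aass, the bifunctional enzyme of its first steps, with 41.2, 2.24 and 0.580 on days 0, 1 and 3. It was 18.4-fold lower on day 1 and 71.0-fold lower on day 3 than on day 0. Gcdh, the glutaryl-CoA dehydrogenase further down the route, was 8.94-fold lower on day 3.

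The genes of arginine handling took 3 kinds of course. Ass1 and Asl, which make arginine from citrulline and aspartate in 2 steps, had 80.8, 17.8 and 6.52, and 18.2, 6.53 and 4.14, on days 0, 1 and 3. They were 12.4-fold and 4.39-fold lower on day 3 than on day 0. Gatm, the mitochondrial enzyme that uses arginine and glycine in the first step of creatine synthesis, had 61.8, 2.79 and 3.39. Its 22.2-fold difference on day 1 was the largest of the 41 genes on that day, and it was 18.2-fold lower on day 3. Gamt, which completes creatine synthesis, was 4.09-fold lower on day 3, and less than 4-fold lower under median centring. Arg2, the mitochondrial arginase, was the one gene of the set at least 2-fold higher on day 1, with 0.305, 0.767 and 0.398, or 2.52-fold above day 0 on day 1 and 1.31-fold on day 3.

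The glutamate pair was among the less lowered genes. Glud1, the mitochondrial glutamate dehydrogenase, had 68.6, 37.9 and 29.5 on days 0, 1 and 3, a difference of 2.33-fold on day 3. Glul, the glutamine synthetase, had 17.1, 4.44 and 3.31 and was 5.17-fold lower on day 3 than on day 0, and at 3.85-fold on day 1 it lay just outside the threshold. With spike-in scaling, or with its probes averaged, Glul was under 4-fold lower on day 3 too. The other enzymes that use glutamate, glutamine or asparagine went both ways. Abat, which degrades the amino acid GABA, was 23.4-fold lower on day 3 than on day 0. The asparaginase gene Aspg was 5.30-fold lower (a log2 ratio of -2.41, and -0.46 with its probe of smallest change). With the probe of smallest change, neither Abat nor Aspg was counted as at least 4-fold lower (0 of the 7 such enzymes that had a ratio). Asns, the asparagine synthetase, had 1.73, 55.7 and 50.3 (29.1-fold higher on day 3 than on day 0). The glutaminase gene Gls2 had 0.0516, 0.168 and 0.584 (11.3-fold higher).

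Miox had the latest course of the set. It stood at 372, 98.7 and 3.62 on days 0, 1 and 3, so that it was 3.77-fold lower on day 1 than on day 0, short of the threshold, and 27.3-fold lower on day 3 than on day 1, the largest difference of the 41 genes over those days. The next after it, Hpd, was 12.5-fold lower on day 3 than on day 1. None of Isyna1, Impa1 and Impa2, which make inositol, reached 4-fold on day 1 or day 3 against day 0.

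Besides the 41 genes, 68 of 70 other listed enzymes of the same routes had a probe. Against the 33 lower and 0 higher of the 41 on day 3, with a median log2 ratio of -3.18, there were 27 lower and 7 higher by at least 4-fold among these 68, with a median of -1.20. Over all genes 7.80% were lower and 5.33% higher on that day. With spike-in scaling 15 of the 68 were lower and 9 higher, against 25 lower and 0 higher of the 41. Over all genes 4.27% were then lower and 11% higher. With median centring 22 of the 68 were lower and 8 higher, against 28 lower and 0 higher of the 41. Over all genes 5.75% were then lower and 7.42% higher. On day 1, with 67 of the other enzymes above background on at least 1 of the 2 arrays, 20 were lower and 3 higher, with a median of -1.16. Over all genes 5.14% were lower and 3.39% higher on day 1. The 7 higher genes on day 3 were Asns, Aldh18a1, Phgdh, Gls2, Bcat1, Pycr1 and Psph. As background, 5 of these (Asns, Aldh18a1, Pycr1, Phgdh and Psph) act in the synthesis of asparagine, proline or serine. Both lists were drawn up with earlier results of these data known, so their difference is a description.

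**Figure D3:**
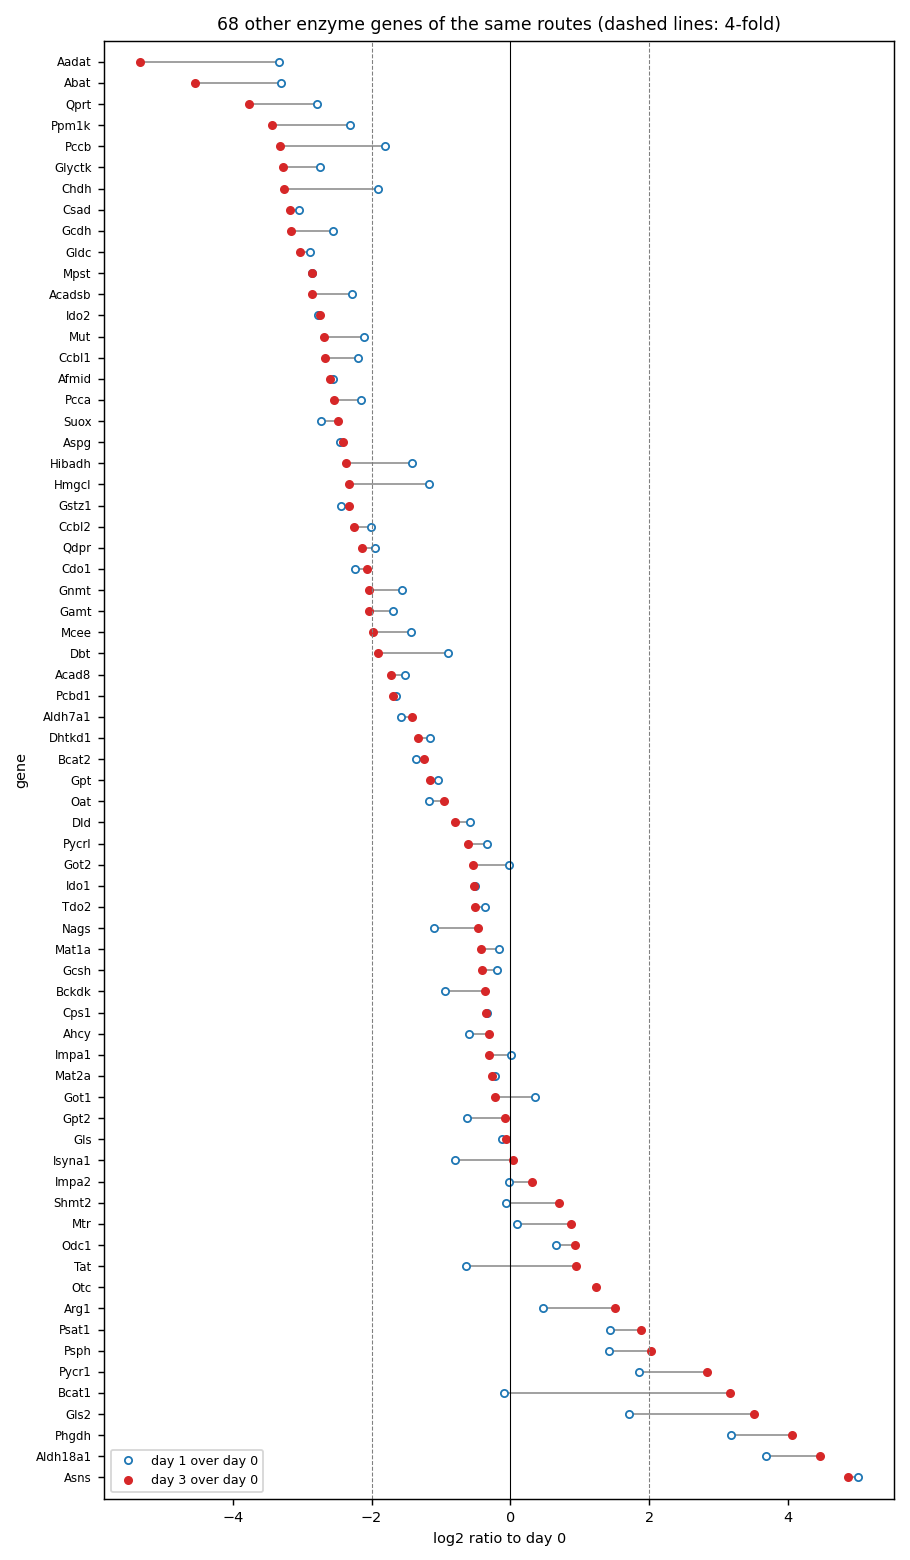
Log2 ratio to day 0 of the 68 other enzyme genes of the same routes on day 1 (open circles) and day 3 (filled circles), ordered by the day 3 value, with dashed lines at 4-fold. Aadat lies lowest at -5.33, 27 filled circles lie at or left of the lower line, and Asns, Aldh18a1, Phgdh, Gls2, Bcat1, Pycr1 and Psph lie right of the upper line.

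By the compartment in which the proteins are known to work, assigned after the values had been seen, the 3 peroxisomal genes (Pipox, Dao and Ddo) had a median log2 ratio of -4.79 on day 3, the 16 cytosolic ones -3.61 and the 22 mitochondrial ones -3.02. At least 4-fold lower were 3 of 3, 13 of 16 and 17 of 22. The ranges overlapped, from -5.87 to -2.37 for the peroxisome, from -6.90 to -0.55 for the cytosol and from -6.15 to 0.56 for the mitochondrion. Against the histogram of all genes, the set as a whole was shifted to lower values on both days.

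**Figure D4:**
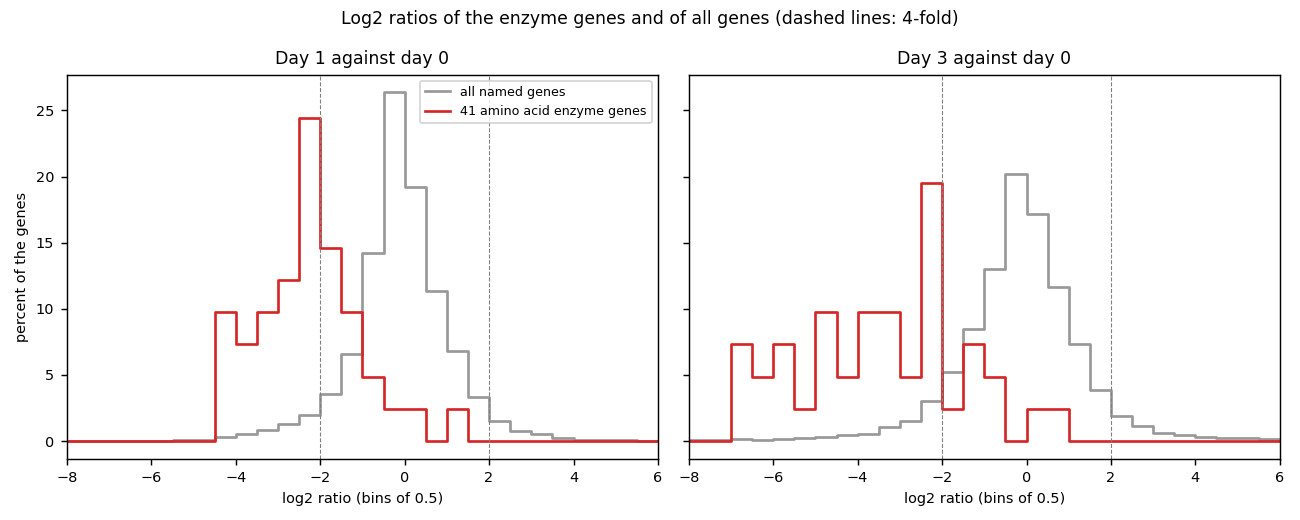
Percent of genes in bins of 0.5 of the log2 ratio for the 41 genes (red) and all named genes (grey), on day 1 (left) and day 3 (right) against day 0, with dashed lines at 4-fold. The grey curves centre near -0.11, whereas the red ones have their medians at -2.30 on day 1 and -3.18 on day 3.

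The 41 genes were measured by 56 probes with 1 spot each, none saturated or marked as an outlier. On day 3, 54 of the 56 probes were lower than on day 0 and 42 were at least 4-fold lower. Of the 13 genes with over 1 probe, 3 had a probe more than 1 away in log2 ratio from the one that stands for the gene. The second probe of Glyat gave a larger difference than the one that stands for the gene, -5.19 against -3.71 on day 3 and -3.91 against -2.002 on day 1. For Aldh4a1 the second probe gave -1.25 against -3.10 on day 3 and was dim, at 0.184 on day 0. The 2 other probes of Ddo gave -1.89 and -2.89, on either side of its -2.37. For Glul the 2 other probes gave -1.40 and -1.16 against -2.37 on day 3. The paired probes of Prodh2 share 51 of their 60 bases, so that their similar ratios (-4.52 and -4.65) are no separate measurements. Across all 7417 genes with several probes, the median SD between probes of a gene was 0.34 in the log2 ratio of day 1 to day 0 and 0.46 in that of day 3 to day 0.

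**Figure D5:**
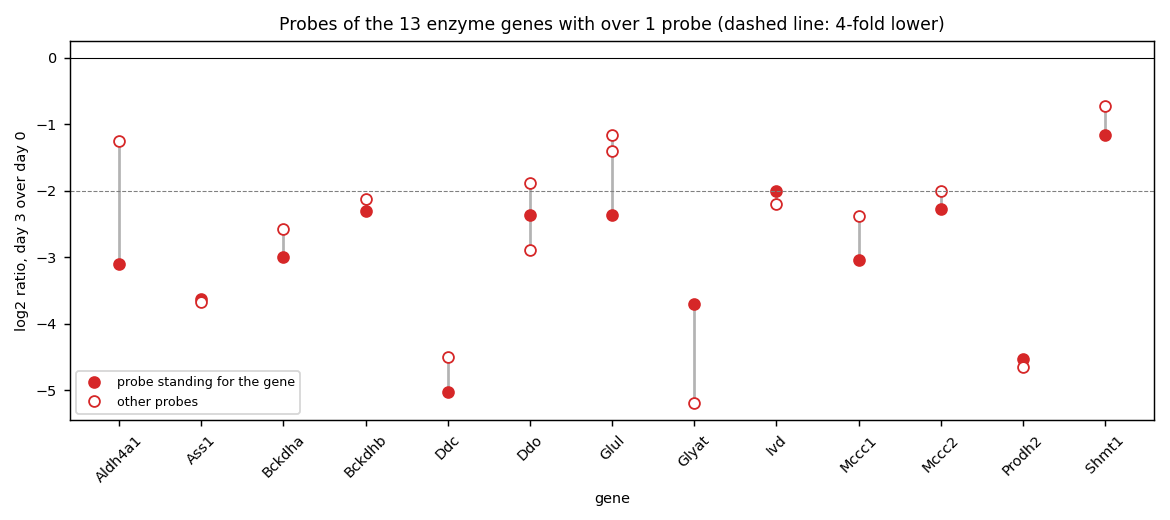
Log2 ratio of day 3 over day 0 for each probe of the 13 enzyme genes with over 1 probe, the filled circle being the probe that stands for the gene, with the dashed line at 4-fold lower. Aldh4a1, Glul and Glyat have open circles more than 1 away from the filled one, and every probe of the 13 genes lies below 0.

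The share of lower and higher calls over all genes depended on how the arrays were scaled. On day 3 against day 0, 1484 genes were lower and 1014 higher, so that higher genes made up 40.6% of the calls, against 56.4% with each array centred on the median of its spots and 72.1% with scaling to the spike-in controls, which moved the median of all genes to 0.54. On day 1 against day 0 the share of higher calls was 39.8%, and 51.8% and 51.4% under the same alternatives. For day 3 against day 1 it was 55.9%, and 63.7% and 82.0%. In the set of 41, 0 genes passed 4-fold upwards under any of these, while 25 (spike-in controls) and 28 (median) were at least 4-fold lower on day 3 than on day 0. The scanner software's multiplicative correction for spatial trends had been applied to the arrays of day 0 and day 1 but not to that of day 3, and its omission left 33 of the 41 genes lower on day 3.

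The label of the cells was set against markers. All 12 proximal tubule markers were well above background on day 0, and all 12 were at least 4-fold lower on day 3, 11 of them already on day 1. Their summed level, which weights bright probes most and serves only to follow a list over the days, was 751, 90.9 and 15.3 on days 0, 1 and 3, and their median log2 ratio of -5.49 on day 3 was below that of the enzyme genes. The phosphate transporter Slc34a1 alone had 111, 13.5 and 0.264. Markers of other nephron segments were present on day 0, and their summed levels were also lower on the culture days. The level of 4 loop of Henle markers was 425, 96.2 and 20.1 (Umod 252 on day 0). Among these 4, Cldn16 had 1.44, 0.534 and 2.65 and was 1.84-fold higher on day 3 than on day 0. The level of 4 distal and connecting tubule markers was 49.1, 2.54 and 1.17, with Pvalb not well above background on day 3. That of 5 collecting duct markers was 45.5, 8.71 and 2.41. Podocyte markers summed to 9.02, 1.82 and 2.35, endothelial ones to 21.3, 11.2 and 4.16, and red cell ones to 22.0, 2.63 and 0.277. Several of the enzymes are also abundant in liver, and 4 hepatocyte markers summed to 5.65, 0.716 and 0.220, with Ttr not well above background on day 3. In the other direction, fibroblast and pericyte markers summed to 9.38, 14.6 and 20.1, a sum carried by Acta2, since the 5 others summed to 3.224, 3.72 and 2.93 and 2 of them were lower on day 3 than on day 0. Those of mesothelium and urothelium summed to 0.419, 2.33 and 18.9 (0.372, 1.90 and 1.51 without Msln). The 6 macrophage and leukocyte markers summed to 14.2, 10.46 and 17.1 (2.14, 4.34 and 3.70 without Lyz2). Of the 5 besides Lyz2, 3 were lower on day 3 than on day 0. In these bulk samples fewer cells of a type and less RNA per cell cannot be told apart, and the part of other cell types in the lower levels of the enzyme genes was not tested.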

How the data were processed

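Total RNA of mPTECs on days 0, 1 and 3 was labelled with Cy3 and put on 1 array each, per the labels. Each deposited array file lists spot intensity, background subtracted by Agilent Feature Extraction (10.5.1.1 per the file headers, 9.1 per the submitters' processing notes), with other columns holding flags, 0 or 1, per the file headers. The authors' deposited value table is a ratio of each spot's processed signal to its array's 75th percentile, tested on all 43379 values per array. From the files, log2 signals over the 75th percentile of the non-control spots were computed (Python 3.11.15, pandas 2.3.3, numpy 2.4.6), outlier spots were left out, and spots of a probe were averaged. A gene was represented by its brightest probe on average over the 3 arrays. Of 28138 names in the files, 19782 were known to RefSeq, and those above background on at least 1 array of a comparison were counted. In a ratio, a level not above background was raised to its array's lowest level above background where it lay below that. Printed levels and marker sums are as measured. The 75th percentiles were 1184, 1509 and 1515 intensity units on days 0, 1 and 3, and precision is limited by having 1 array per day. Probe positions are on mm9, per the file headers.

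The members, routes, marker and motif lists were chosen with earlier results of these data known, and the compartments, chromosomal neighbours and motifs after the values here were seen. Every member is named. Of the other enzymes, those past 4-fold against day 0 are named, at most 3 per route and direction by size, except that the 7 higher on day 3 were all named after their values were seen, and so were Hnf4a and the inositol genes. Some further listed enzymes are not reported here. No test was run. Counting was tested on simulated data. Alternatives were 4 scalings, normexp background correction (limma 3.58.1, R 4.3.3, offset 50), the signal before trend correction, other choices of probe, filters, outlier spots kept, a 2-fold threshold and the value table.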

Additional observations from a re-analysis of the deposited data

How the results depend on the processing

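No paired analysis was possible because each day has 1 array. Over the alternatives at 4-fold, 23 to 27 of the 41 genes were lower on day 1 than on day 0, 25 to 33 on day 3 than on day 0, and 5 to 11 on day 3 than on day 1, with 0 higher in any. Among the counts and medians of the set, those that moved beyond the spread between probes or by over 1.5 times did so with spike-in scaling or at another threshold. With spike-in scaling the median of the set on day 3 against day 0 became -2.52, on day 3 against day 1 it became -0.38, and 5 genes instead of 9 were at least 4-fold lower on day 3 than on day 1. Under it Cth was above its day 0 level on day 3, and 8 genes (Acmsd, Cth, Gcat, Glud1, Glul, Kynu, Mccc2 and Sardh) turned from slightly lower to slightly higher on day 3 than on day 1. Acmsd and Kynu did so under median centring and quantile normalization as well, and Glud1 with normexp and before trend correction. At a 2-fold threshold, 1 gene was higher on day 1 than on day 0 (Arg2), and on day 3 against day 1, 18 were lower and 1 was higher (Haao). Calls near 4-fold depended on scaling: Glyat, Mccc2 and Ass1 on day 1, and Asl, Bckdhb, Ivd, Mccc2 and Sardh on day 3 against day 0, were lost under median centring and spike-in scaling. Of the scalings, only that to the spike-in controls lost Acmsd, Ddo and Glul on day 3. Reference gene scaling also lost Glyat and Mccc2 on day 1 and Ivd on day 3. Glul on day 3 was lost as well when the probes of a gene were averaged. Taking the probe with the smallest change, an alternative chosen after the data were seen, lost Aldh4a1 (log2 ratio -1.25), Ddo, Glul (-1.16) and Mccc2 on day 3 against day 0, moves that for Aldh4a1 and Glul were larger than those of spike-in scaling. The cause of these shifts was not tested, and 1 array per day limits all of them.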
